A study of Mus musculus with 14 samples.

Results

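Described here are 10 genes of the inflammatory response in the mouse retinal pigment epithelium (RPE), chosen by name among the 42687 genes of a count table and followed over its 14 libraries. The cytokines Tnf, Il1b, Il6, Lif and Il33, the receptor antagonist Il1rn, the Toll-like receptors Tlr2 and Tlr4 and the feedback inhibitors Nfkbia and Tnfaip3 were each found once by symbol. The question was how they differ between mice whose RPE lacks the chloride intracellular channel Clic4 and their controls. All mice were male C57BL/6J aged 3 months, and a library is the RPE of both eyes of 1 mouse. KO mice were Best1-Cre+/-; Clic4f/f, in which Cre is driven by the Best1 promoter, used for its activity in the RPE. There were 3 sets with no library in common: 3 KO and 3 WT mice without Cre or floxed alleles (WT set), 2 KO and 2 Clic4f/f mice with floxed alleles but no Cre (Ctrl set), and 2 KO and 2 Best1-Cre+/- mice with Cre but no floxed alleles (CreCtrl set). Control genotype and set go together and cannot be told apart.

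NF-kB is a family of transcription factors held in the cytoplasm by inhibitory proteins of the IkB family. Ligands such as Tnf and Il1b, or microbial molecules that bind Toll-like receptors, activate kinases that mark the inhibitor for destruction, so that NF-kB enters the nucleus and transcribes cytokine genes. Among its targets are its own inhibitors: Nfkbia encodes IkB alpha, and Tnfaip3 encodes A20, a ubiquitin-editing enzyme that ends the signal upstream. In the eye these genes can be expressed by the RPE, by macrophages and microglia, and by fibroblasts and endothelial cells of the choroid beneath it.

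The stretch before the transcription start is shown for the members in which a match to the NF-kB consensus (the kB site, in its form with degenerate letters) was found. A match shows the letters only, and binding or regulation by NF-kB was not tested. RefSeq's promoter windows (GRCm38.p6, 250 bases before to 50 after the start) were read on both strands for 9 members, and Tlr4 had no entry. A match was found in 4 of the 9, against 5.136% of the 27025 genes with a window. The members were chosen by name for their part in this response, so these shares are a description only. The 250 bases before the start are printed 5′ to 3′ on the gene's strand, with matches in capitals.
Nfkbia, chr12:55492648-55492897, minus strand: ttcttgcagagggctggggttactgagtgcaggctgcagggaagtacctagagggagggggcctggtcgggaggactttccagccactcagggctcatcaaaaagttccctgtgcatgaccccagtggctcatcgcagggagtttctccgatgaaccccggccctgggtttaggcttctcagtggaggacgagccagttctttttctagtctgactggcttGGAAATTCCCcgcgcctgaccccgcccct
Tnfaip3, chr10:19015411-19015660, minus strand: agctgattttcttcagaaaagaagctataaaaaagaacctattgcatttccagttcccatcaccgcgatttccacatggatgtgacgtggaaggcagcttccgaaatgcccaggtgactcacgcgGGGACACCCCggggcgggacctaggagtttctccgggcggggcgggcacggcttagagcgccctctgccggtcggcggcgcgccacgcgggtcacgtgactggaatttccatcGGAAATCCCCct
Tlr2, chr3:83841609-83841858, minus strand: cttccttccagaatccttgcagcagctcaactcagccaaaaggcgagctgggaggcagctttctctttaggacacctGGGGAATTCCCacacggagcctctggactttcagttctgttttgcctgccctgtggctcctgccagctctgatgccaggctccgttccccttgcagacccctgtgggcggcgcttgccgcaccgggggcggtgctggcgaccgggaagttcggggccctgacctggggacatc
Il6, chr5:30012864-30013113, plus strand: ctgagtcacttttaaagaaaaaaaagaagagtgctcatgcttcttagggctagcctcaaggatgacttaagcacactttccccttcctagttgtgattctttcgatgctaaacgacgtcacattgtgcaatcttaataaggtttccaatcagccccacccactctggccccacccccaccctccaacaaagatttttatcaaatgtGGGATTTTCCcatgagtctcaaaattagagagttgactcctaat
Counted so that the base before the start is number -1, the match in Nfkbia began at -29, that in Il6 at -44, and those in Tnfaip3 at -125 and -12. Tlr2 held a pair of overlapping matches at -173 and -172, which share one run of capitals, and another at -8 that runs past the printed stretch. On the minus strand of chromosome 3, GENCODE M21 has Tlr2 begin at 83841767, inside the stretch printed. No match was found in the windows of Tnf, Il1b, Lif, Il33 and Il1rn, which says only that these letters are absent from that stretch.

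The deposited counts summed to 9828293 to 32384166 per library. Levels are given in CPM, the counts relative to the library's total, scaled with TMM factors over all 14 libraries. Clic4 had 62.1 to 230 CPM in the 7 control and 9.78 to 33.9 CPM in the 7 KO libraries, with no overlap. All 10 RPE markers were present in every library, with summed levels of 15057 to 56425 CPM in control and 69890 to 80157 CPM in KO libraries. KO replicate 2 of the Ctrl set stood apart from the other KO libraries in its macrophage transcripts, and its values are given beside the results they touch. The same library had 22.4 CPM of neutrophil markers, against 1.33 to 8.71 CPM in the other KO libraries. Its 33.9 CPM of Clic4 was the highest of the KO libraries, close to 33.1 CPM in KO replicate 1 of the WT set. The other KO library of its own set had 9.78 CPM.

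The KO libraries carried fewer transcripts of most of these genes. Over all 3 sets, with set as a covariate, 9 of the 10 members fell in KO libraries (called at an adjusted p-value under 0.05 and a fold change above 1.5), where 15.7% of the 17662 genes tested were called lower and 10.3% higher. The falls ran from 2.17-fold for Il33 to 8.11-fold for Il1b. Il1rn was not called, at a log2 fold change of -1.72 ± 0.78 (SE; adjusted p = 0.0992 by the quasi-likelihood test of edgeR, adjusted by Benjamini-Hochberg over all genes tested, as for every adjusted p below unless another tool is named). The median log2 fold change of the 10 members was -1.95, against -0.02 over all genes tested. In 7 of the 10, every KO library lay below every control library of its set, which held for 9.57% of all genes. The others were Il33, Il1rn and Tlr2.

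Taken set by set, the count of calls differed. In KO vs. WT, 10 of 10 members were lower and 8 were called lower, against a background of 17.6% of 15428 genes, and in 8 no KO library reached a WT library (24.5% of all genes). Il6 and Il1rn were not called. Without WT replicate 1 the number called was 5, with Lif, Il33 and Tlr4 lost. Of the 6 libraries left out in turn, the calls of Lif and Il33 held in 2 and that of Tlr4 in 3. In KO vs. CreCtrl, 9 of 10 were lower and 8 were called lower (12.2% of 15963 genes), with all KO below all CreCtrl libraries in 9 (34.9% of all genes). Il33 and Il1rn were not called, and without CreCtrl replicate 2 the number called was 4, with Tnf, Lif, Tlr2 and Tlr4 lost. Of the 4 libraries left out in turn, the call of Tlr4 held in 1, those of Lif and Tlr2 in 2 and that of Tnf in 3, and a fit of all 14 libraries as 6 groups lost Tnf, Il6, Lif, Tlr2 and Tlr4 (adjusted p 0.0578 to 0.145). In KO vs. Ctrl, 9 of 10 were lower and the KO libraries lay below both Ctrl libraries in those 9 (22.7% of 15287 genes), yet 0 were called by edgeR, as were 0% of all genes. The targeted gene Clic4 was not called there either (log2 fold change -1.61 ± 0.58, adjusted p = 0.333). It was called lower in KO vs. WT (adjusted p = 3.33e-05) and in KO vs. CreCtrl (adjusted p = 0.0132). At an unadjusted p under 0.05 there were 5 members (Lif, Il33, Il1rn, Tlr4 and Nfkbia), against 11.4% of genes lower at that level. DESeq2 called 4 of the members in this comparison (Lif, Il33, Il1rn and Nfkbia) and 7.16% of the genes as lower. The median log2 fold changes of the members were -2.32, -1.69 and -2.12 in the WT, Ctrl and CreCtrl sets, where those of all genes were -0.08, 0.01 and -0.02.

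**Figure D1:**
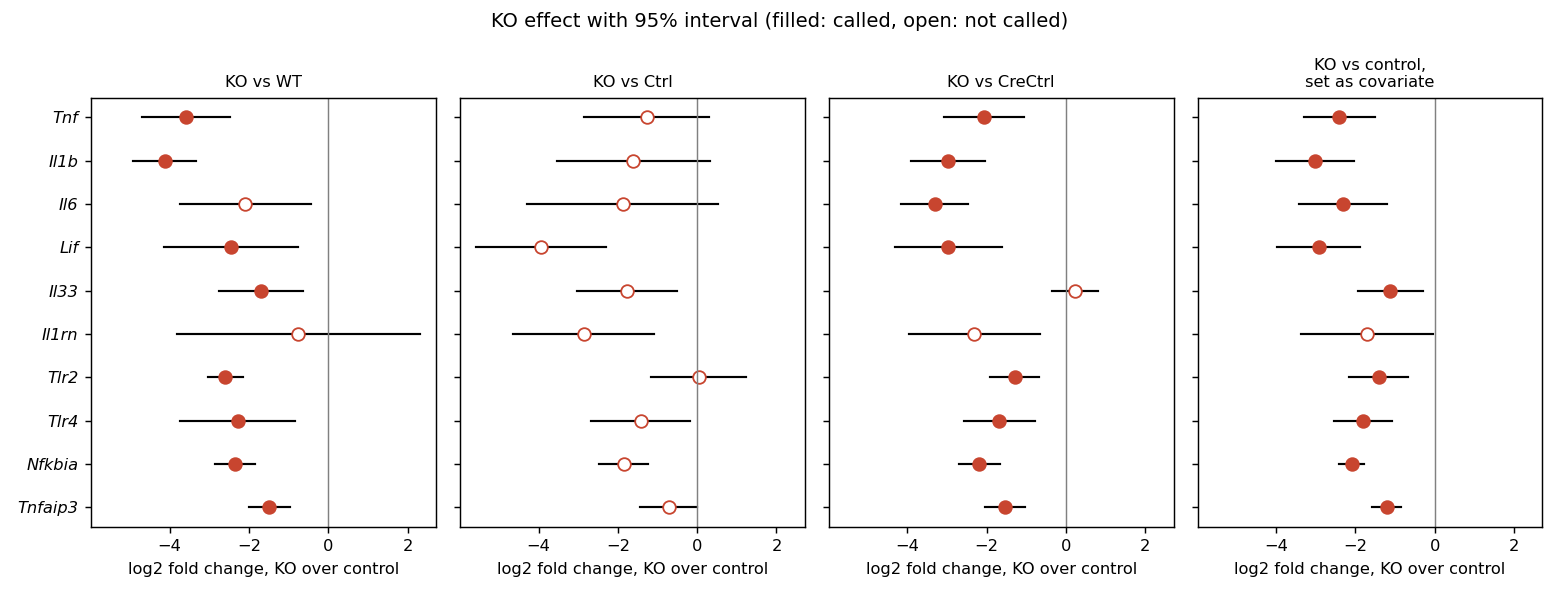
The log2 fold change of KO over control libraries (x axis) for each of the 10 genes (rows) in the 3 sets and in the fit over all sets, with points at the estimate, bars for the 95% interval, and filled points for genes called. Most points lie left of 0 in every panel, no point is filled in KO vs. Ctrl, and the points right of 0 are Tlr2 in KO vs. Ctrl and Il33 in KO vs. CreCtrl.

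Nfkbia (ENSMUSG00000021025, GRCm38 chromosome 12, 55489410 to 55492647, 6 exon blocks), the IkB alpha gene, had the narrowest interval of the 10 genes over all sets. WT libraries had 244, 296 and 206 CPM and KO libraries of that set 70.1, 51.1 and 40.0 CPM. Ctrl libraries had 127 and 129 CPM against 30.4 and 40.4 CPM in KO, and CreCtrl libraries 130 and 110 CPM against 22.1 and 31.8 CPM in KO. All 7 KO libraries lay below all 7 control libraries, across sets as well as within them. The fall over all sets was 4.26-fold (log2 fold change -2.09 ± 0.15, adjusted p = 2.38e-06). Its log2 fold change was -2.35 ± 0.22 in KO vs. WT (adjusted p = 1.21e-04), -2.18 ± 0.22 in KO vs. CreCtrl (adjusted p = 0.00390) and -1.86 ± 0.25 in KO vs. Ctrl (adjusted p = 0.106).

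Tnfaip3 (ENSMUSG00000019850, chromosome 10, 19000910 to 19015657, 9 exon blocks), the A20 gene, moved the same way by less. Its levels were 116, 125 and 75.2 CPM in WT and 51.8, 35.2 and 36.6 CPM in KO libraries of that set. In the Ctrl set 77.2 and 87.4 CPM stood against 38.9 and 61.5 CPM in KO, and in the CreCtrl set 60.2 and 77.5 CPM against 20.8 and 27.7 CPM. The groups did not overlap in any set, although KO replicate 2 of the Ctrl set lay above the lower CreCtrl library. Over all sets the fall was 2.32-fold (log2 fold change -1.22 ± 0.18, adjusted p = 2.59e-04), with -1.49 ± 0.23 in KO vs. WT (adjusted p = 0.00119), -1.53 ± 0.21 in KO vs. CreCtrl (adjusted p = 0.00804) and -0.71 ± 0.29 in KO vs. Ctrl (adjusted p = 0.418).

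Both inhibitors fell, but Nfkbia by more, so that their proportion within a library differed between genotypes. Per kilobase of exon, the level of Nfkbia was 6.34 to 12.3 times that of Tnfaip3 in control libraries and 2.95 to 6.51 times in KO libraries. The KO ratio was 0.539 of the control ratio (log2 difference -0.89, mean of the 3 set differences). A two-sided exact permutation test within sets gave p = 0.00278, the smallest that the 720 relabellings can give. This ratio was chosen for testing after the values had been seen.

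Il1b (ENSMUSG00000027398, chromosome 2, 129364570 to 129371139, 6 exon blocks), the secreted interleukin 1 beta that inflammasomes mature, had the highest median per kilobase of the member cytokines in control libraries. WT libraries had 147, 117 and 137 CPM and their KO counterparts 13.8, 5.87 and 5.61 CPM. The Ctrl libraries had 54.6 and 23.9 CPM, against 4.56 and 21.2 CPM in KO. In the CreCtrl set 33.0 and 50.0 CPM stood against 3.35 and 7.30 CPM. No KO library reached a control library of its own set, but KO replicate 2 of the Ctrl set came close to the lower Ctrl library. The fall was 17.5-fold in KO vs. WT (log2 fold change -4.13 ± 0.35, adjusted p = 7.06e-05) and 7.88-fold in KO vs. CreCtrl (-2.98 ± 0.40, adjusted p = 0.00740). In KO vs. Ctrl the log2 fold change was -1.61 ± 0.78 (adjusted p = 0.540), and it was -3.10 without KO replicate 2 of that set and -0.88 without Ctrl replicate 1. A stretch of 25 bases of Il1b exons overlaps the gene Il1bos on the other strand, so reads there could not be told apart if strand was not used in counting.

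Tnf (ENSMUSG00000024401, chromosome 17, 35199381 to 35202007, 4 exon blocks), the cytokine that signals through the TNF receptors, had 22.7, 14.8 and 14.6 CPM in WT and 2.58, 1.19 and 0.936 CPM in KO libraries of that set. Ctrl libraries had 14.8 and 6.13 CPM and KO libraries 2.80 and 5.85 CPM, while in the CreCtrl set 5.39 and 8.70 CPM stood against 1.32 and 2.09 CPM. As for Il1b, the groups did not overlap within a set, and KO replicate 2 of the Ctrl set was the highest of the 7 KO libraries. Its log2 fold change was -3.60 ± 0.49 in KO vs. WT (adjusted p = 6.59e-04), -2.07 ± 0.43 in KO vs. CreCtrl (adjusted p = 0.0254), -1.27 ± 0.64 in KO vs. Ctrl (adjusted p = 0.568) and -2.41 ± 0.42 over all sets (adjusted p = 9.42e-04).

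Il6 (ENSMUSG00000025746, chromosome 5, 30013114 to 30019981, 4 exon blocks) and Lif (ENSMUSG00000034394, chromosome 11, 4257557 to 4272514, 5 exon blocks) encode cytokines that share the receptor subunit gp130. Lif is also known as a factor that protects photoreceptors. Il6 levels were 19.1, 22.8 and 11.99 CPM in WT against 7.75, 0.629 and 5.41 CPM in KO libraries, 3.69 and 10.1 CPM in Ctrl against 0.522 and 3.22 CPM, and 11.3 and 11.6 CPM in CreCtrl against 0.909 and 1.42 CPM. The groups of a set did not overlap, and KO replicate 2 of the WT set had 9 counts, well under the other KO libraries of that set. Il6 fell in KO vs. CreCtrl, by 9.90-fold (log2 fold change -3.31 ± 0.36, adjusted p = 0.00457, and 0.0715 in the fit of 6 groups), and over all sets by 4.94-fold (-2.31 ± 0.52, adjusted p = 0.00375). In KO vs. WT its log2 fold change of -2.09 ± 0.72 missed the threshold (adjusted p = 0.0531), which DESeq2 passed (adjusted p = 0.00900), and in KO vs. Ctrl it was -1.88 ± 0.97 (adjusted p = 0.592).

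Lif had 13.1, 8.69 and 12.3 CPM in WT and 3.74, 2.79 and 0.334 CPM in KO libraries. Levels were 11.2 and 13.5 CPM in Ctrl against 0.391 and 1.19 CPM in KO, and 3.55 and 4.19 CPM in CreCtrl against 0.744 and 0.278 CPM in KO. The KO libraries held between 5 and 55 counts of Lif. Every KO library lay below every control library of its set, and the CreCtrl libraries lay below those of the other control genotypes. Its fall of 7.62-fold over all sets (log2 fold change -2.93 ± 0.49, adjusted p = 7.04e-04) had parts of -2.46 ± 0.74 in KO vs. WT (adjusted p = 0.0311), -3.94 ± 0.66 in KO vs. Ctrl (adjusted p = 0.110) and -2.97 ± 0.57 in KO vs. CreCtrl (adjusted p = 0.0199).

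Il33 (ENSMUSG00000024810, chromosome 19, 29925114 to 29960718, 10 exon blocks), a nuclear alarmin released by damaged cells, did not follow the others in every set. It had 53.8, 37.4 and 16.3 CPM in WT and 18.6, 9.36 and 8.29 CPM in KO libraries of that set, so that 1 KO library lay above the lowest WT library. Ctrl libraries had 49.2 and 21.3 CPM against 12.98 and 7.70 CPM in KO. In the CreCtrl set the order was not the same, with 19.3 and 13.4 CPM in control and 22.5 and 17.0 CPM in KO libraries. The log2 fold change was -1.70 ± 0.46 in KO vs. WT (adjusted p = 0.0207), -1.77 ± 0.51 in KO vs. Ctrl (adjusted p = 0.211) and 0.23 ± 0.25 in KO vs. CreCtrl (95% interval -0.35 to 0.81, adjusted p = 0.523). The difference between these effects was -1.83 ± 0.71 for WT minus CreCtrl (adjusted p = 0.236) and -2.04 ± 0.78 for Ctrl minus CreCtrl (adjusted p = 0.537), neither past the threshold. Over all sets Il33 was called (-1.12 ± 0.38, adjusted p = 0.0327), and the call was lost on leaving out any of 7 of the 14 libraries (adjusted p up to 0.0808): WT replicates 1 and 2, KO replicates 2 and 3 of the WT set, Ctrl replicate 1 and both KO replicates of the Ctrl set.

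Il1rn (ENSMUSG00000026981, chromosome 2, 24336853 to 24351494, 6 exon blocks), the antagonist that occupies the interleukin 1 receptor without signalling, was the least abundant member per kilobase in control libraries and had the largest standard error of the 10 over all sets. WT libraries had 0.328, 7.14 and 2.33 CPM, from 4, 83 and 34 counts, and KO libraries of that set had 4.49, 0.0699 and 1.80 CPM, from 66, 1 and 27 counts. These groups overlapped over nearly their whole range. In the other sets they did not, with 3.95 and 12.4 CPM in Ctrl against 1.17 and 1.07 CPM in KO and 1.84 and 1.97 CPM in CreCtrl against 0.620 and 0.174 CPM in KO. The log2 fold changes were -0.75 ± 1.35 in KO vs. WT (95% interval -3.83 to 2.32, adjusted p = 0.720), -2.86 ± 0.72 in KO vs. Ctrl (adjusted p = 0.164) and -2.31 ± 0.70 in KO vs. CreCtrl (adjusted p = 0.0615).

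**Figure D2:**
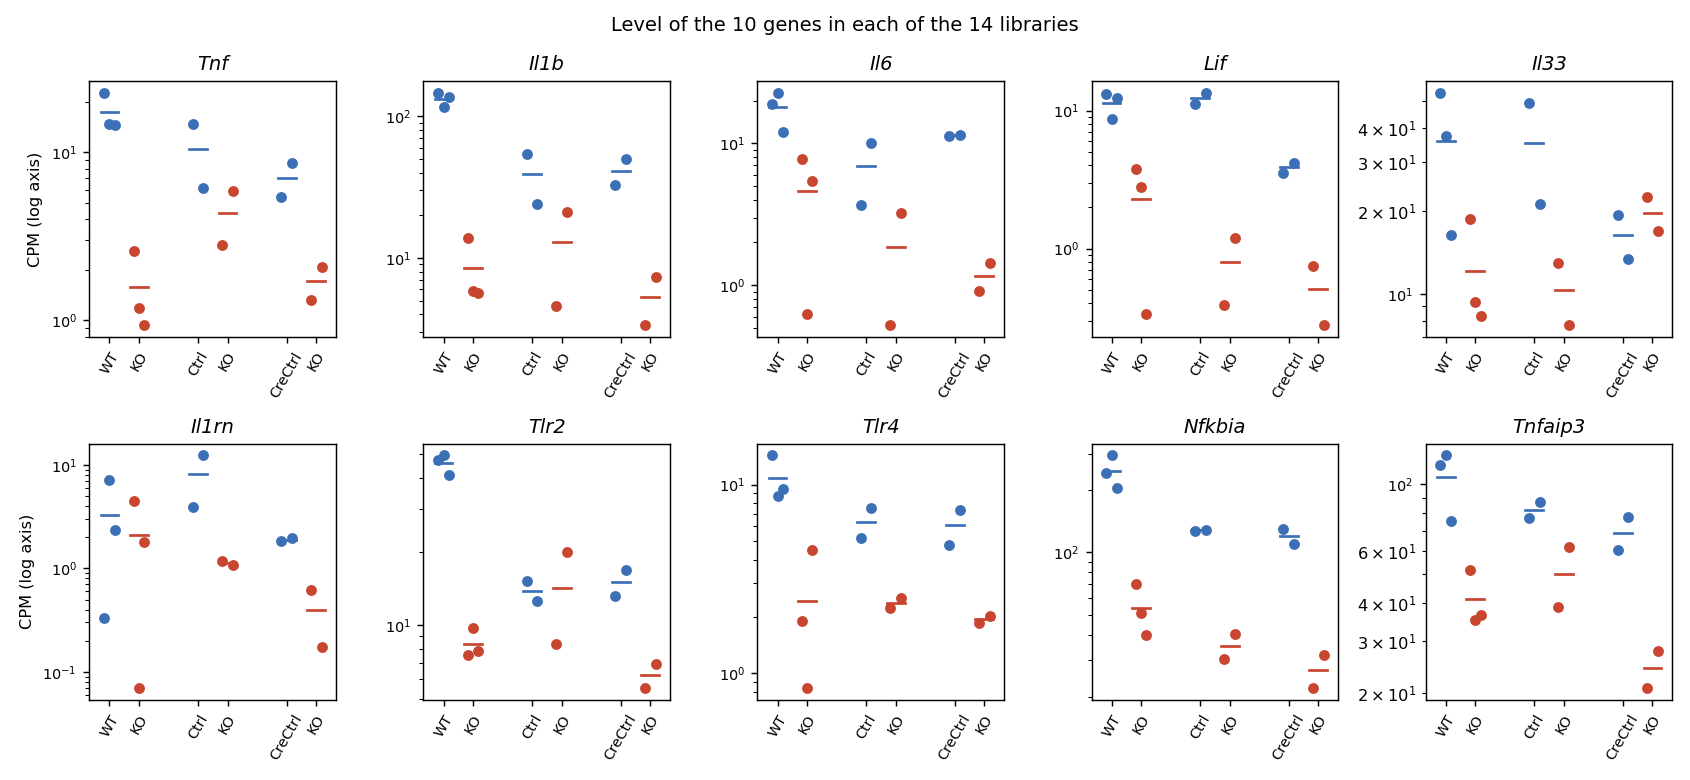
Level in CPM (y axis, log scale, a range of its own for each gene) of the 10 genes in control (blue) and KO (red) libraries of the WT, Ctrl and CreCtrl sets (x axis), with a point for each library and a line at the group mean. For Nfkbia every red point lies under every blue point, for Tlr2 the red point at 19.99 CPM in the Ctrl set lies above both blue points of that set, and for Il33 the red points of the CreCtrl set reach above the blue ones.

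Tlr2 (ENSMUSG00000027995, chromosome 3, 83836272 to 83841767, 3 exon blocks), the receptor for bacterial lipoproteins, had the largest difference of KO effects between the WT and Ctrl sets. WT libraries had 47.5, 49.6 and 41.3 CPM against 7.55, 9.78 and 7.82 CPM in KO, a fall of 6.06-fold (log2 fold change -2.60 ± 0.20, adjusted p = 4.89e-05). CreCtrl libraries had 13.2 and 16.9 CPM against 5.54 and 6.95 CPM (-1.30 ± 0.26, adjusted p = 0.0238). In the Ctrl set the groups overlapped, with 15.2 and 12.5 CPM in control and 8.41 and 19.99 CPM in KO libraries (0.03 ± 0.48, 95% interval -1.16 to 1.23, adjusted p = 0.992). The WT libraries lay well above the other control libraries, whereas KO libraries other than replicate 2 of the Ctrl set lay between 5.54 and 9.78 CPM.

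Of the 10 members, Tlr2 alone had a KO effect that differed between sets past the threshold in edgeR. The log2 difference of its effects, WT minus Ctrl, was -2.50 ± 0.45 (adjusted p = 0.0132), where 5.15% of genes passed. It was no longer called without Ctrl replicate 2 (-2.43, adjusted p = 0.0618) or without KO replicate 2 of the Ctrl set (-1.72, adjusted p = 0.0651). For the same difference Il1b had -2.39 ± 0.81 (adjusted p = 0.107) and Tnf -2.19 ± 0.78 (adjusted p = 0.120). Between the WT and CreCtrl sets 0 members passed (1.49% of genes), with Il33 and Tlr2 at an unadjusted p under 0.05. Between the Ctrl and CreCtrl sets 0 passed as well (0% of genes), again with Il33 and Tlr2 at an unadjusted p under 0.05. DESeq2 called Tlr2 and Tnf for WT minus Ctrl and 0 members for the other differences.

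Tlr4 (ENSMUSG00000039005, chromosome 4, 66827584 to 66930284, 6 exon blocks), the receptor for bacterial lipopolysaccharide, had 14.3, 8.69 and 9.46 CPM in WT and 1.90, 0.838 and 4.48 CPM in KO libraries. Ctrl libraries had 5.20 and 7.51 CPM against 2.22 and 2.51 CPM in KO, and CreCtrl libraries 4.79 and 7.36 CPM against 1.86 and 2.02 CPM. Unlike Tlr2, it was low in both KO libraries of the Ctrl set. All 7 KO libraries lay below all 7 control libraries. Over all sets Tlr4 fell 3.49-fold (log2 fold change -1.80 ± 0.34, adjusted p = 0.00149), with -2.29 ± 0.64 in KO vs. WT (adjusted p = 0.0230), -1.68 ± 0.38 in KO vs. CreCtrl (adjusted p = 0.0329) and -1.43 ± 0.50 in KO vs. Ctrl (adjusted p = 0.321).

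Transcripts of other cell types also differed between the groups, and in bulk libraries fewer cells of a type and less RNA per cell cannot be told apart. Of 11 macrophage markers, 7 were called lower over all sets, 0 higher, and none was at 0 in any control library, while up to 3 were at 0 in a KO library of the WT set. Csf1r, the receptor for the macrophage growth factor and the most abundant of the list in most KO libraries, had 695 to 836 CPM in the 7 KO and 450 to 614 CPM in the 7 control libraries. The summed level of the other 10 markers was 1179 to 2324 CPM in WT and 77.5 to 221 CPM in KO libraries of that set, and 304 and 675 CPM in CreCtrl against 36.2 and 68.0 CPM in KO. In the Ctrl set it was 852 and 508 CPM in control but 106 and 1954 CPM in KO libraries. KO replicate 2 of that set, with 1954 CPM, was the KO library with the most Il1b, Tnf, Tlr2 and Tnfaip3. Without it the log2 fold change of Tlr2 in KO vs. Ctrl was -0.72 (adjusted p = 0.861), and that of Tnf -1.90. The part of macrophage transcripts in these results was not tested.

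The fibroblast list, with 10 of 10 markers called lower over all sets, had a summed level of 7451 to 7530 CPM in WT, 1276 to 2440 CPM in Ctrl, 1316 to 2630 CPM in CreCtrl and 131 to 761 CPM in KO libraries. Among 8 endothelial markers 8 were called lower, with 102 to 510 CPM in control and 34.8 to 148.5 CPM in KO libraries. Immediate-early genes, which respond within minutes to stimulation or handling of tissue, were called lower in 12 of 12, with 4524 to 15063 CPM in control and 318 to 2089 CPM in KO libraries. For neutrophil markers 4 of the 5 tested (of 6) were called lower, with 12.3 to 75.1 CPM in control and 1.33 to 22.4 CPM in KO libraries. For mast cell markers 5 of the 5 tested (of 6) were called lower, with up to 1.15 CPM in KO libraries. Their sums were 25.2 and 53.8 CPM in WT replicates 1 and 2 but 0.0685 to 6.37 CPM in the other control libraries. Within the WT, Ctrl and CreCtrl sets, 1, 0 and 1 mast cell markers were tested and 0 were called. Rod markers were called lower in 0 of 8 and higher in 1 over all sets, but their direction differed by set, with 8 of 8 higher in KO vs. WT (1 called) and in KO vs. Ctrl (0 called) and 7 of 8 called lower in KO vs. CreCtrl (median log2 fold change -3.13). Of the 10 RPE markers, 8 were higher and 2 lower over all sets, with 7 called higher and 0 called lower. In KO vs. CreCtrl 1 of them was called higher and 1 lower. The highest levels of Il1b, Nfkbia, Il6 and Tlr2 were in the WT libraries, which also had the highest fibroblast and immediate-early sums and the lowest RPE sums. In the KO library with the highest macrophage sum, Nfkbia (40.4 CPM) stayed within the range of the other KO libraries, as did Il6, Lif, Il1rn and Tlr4. Of the KO libraries it had the lowest Il33 and the highest Il1b, Tnf, Tlr2 and Tnfaip3. The part of these lists in the members' results was not tested.

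**Figure D3:**
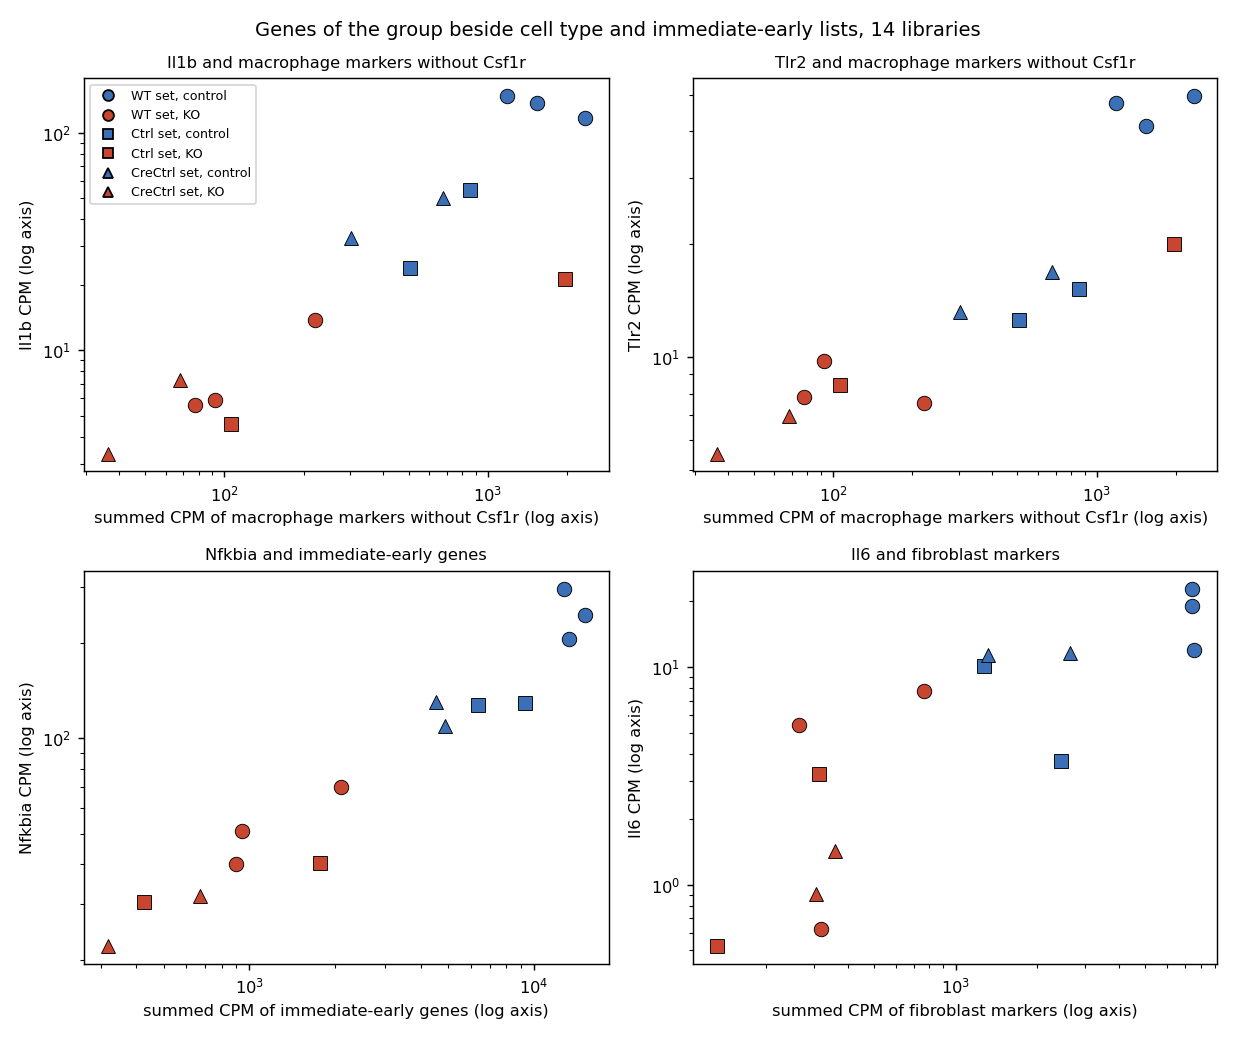
The level of a gene in CPM (y axes) beside the summed CPM of a gene list (x axes), both on log scales, with a point for each of the 14 libraries, coloured blue for control and red for KO and shaped by set. The red square at 1954 CPM of macrophage markers (10 genes, without Csf1r) has 19.99 CPM of Tlr2 and 21.2 CPM of Il1b, more than any other KO library. Nfkbia and the immediate-early sum are both lower in all KO than in all control libraries.

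The same direction was seen through much of the wider pathway, described by 76 other genes grouped by role. Over all sets 63 of the 76 were lower, 43 were called lower (15.7% of all genes) and 1 higher, and the median log2 fold change was -1.99. In KO vs. WT 41 of 74 tested were called lower and 3 higher (Il18, Osmr and Cyld), against 17.6% and 14.1% of all genes. In KO vs. CreCtrl 38 of 74 were called lower (12.2% of all genes), and in KO vs. Ctrl 0 of 73 were called by edgeR, with 25 at an unadjusted p under 0.05 in either direction, beside 11.4% of all genes lower at that level. The 11.4% leaves out genes higher in KO at that level, so it is too low a background for the 25. The gene higher over all sets was Cyld (log2 fold change 0.59 ± 0.12, adjusted p = 0.00204), a deubiquitinase that restrains NF-kB.

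Inflammatory response targets were lower in 11 of 11, and 10 were called. Vcam1, an adhesion molecule that binds leukocytes, had a median of 49.5 CPM in control and 3.80 CPM in KO libraries (log2 fold change -3.15 ± 0.49, adjusted p = 4.88e-04). The endothelial selectins Selp and Sele had 1.12 to 74.0 CPM and 2.24 to 78.2 CPM in control libraries and 0 to 2.92 CPM and 0 to 5.48 CPM in KO libraries. Among other inhibitors and feedback genes, 9 of 12 were called lower. Socs3, an inhibitor of cytokine signalling through gp130, had a median of 624 CPM in control and 78.3 CPM in KO libraries (-3.20 ± 0.36, adjusted p = 3.76e-05). Zfp36, which destabilizes the mRNA of Tnf and other cytokines, had 1607 CPM against 130 CPM (-3.07 ± 0.35, adjusted p = 4.21e-05). Irak3, an inhibitor of Toll-like receptor signalling found in macrophages, had 10.2 CPM against 0.289 CPM (-3.47 ± 1.01, adjusted p = 0.0156). In KO vs. Ctrl the log2 fold change of Irak3 was -1.01 (adjusted p = 0.919). Those of Socs3 and Zfp36 there were -3.50 (adjusted p = 0.146) and -3.08 (adjusted p = 0.161).

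Receptors for the cytokines were called lower in 7 of 11. Il1r1, the signalling receptor for Il1b, fell from a median of 14.05 to 2.99 CPM (log2 fold change -2.61 ± 0.27, adjusted p = 1.77e-05), and Il6ra, the receptor for Il6, from 10.3 to 1.17 CPM (-2.82 ± 0.53, adjusted p = 0.00142). Il1rl1, the receptor for Il33, had 12, 99 and 21 counts in WT and 0 counts in all 3 KO libraries of that set, where a count of 0 allows up to 3 counts, or at most 0.210 CPM in these libraries. Of 8 other cytokine ligands 4 were called lower, among them Osm (-2.52 ± 0.85, adjusted p = 0.0312), Tnfsf12 (-2.30 ± 0.47, adjusted p = 0.00231) and Clcf1 (-2.25 ± 0.21, adjusted p = 1.23e-05). In KO vs. Ctrl the log2 fold changes of Osm and Tnfsf12 were -0.28 (adjusted p = 0.973) and -0.51 (adjusted p = 0.907). That of Clcf1 there was -2.16 (adjusted p = 0.117). For Osm the KO library with the highest level, 13.9 CPM against a KO median of 1.11 CPM, was again replicate 2 of the Ctrl set.

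Other Toll-like receptors and adaptors were called lower in 6 of 15, with Tlr8 (log2 fold change -3.41 ± 1.09, adjusted p = 0.0244), Tlr13 (-3.19 ± 1.01, adjusted p = 0.0238) and Tlr7 (-2.87 ± 0.64, adjusted p = 0.00358) at the head. These sense nucleic acids in endosomes, and each was at 0 in at least 1 KO library. The falls of Tlr8 and Tlr13 were not seen in KO vs. Ctrl. Their log2 fold changes there were 0.094 (adjusted p = 0.992) and -0.14 (adjusted p = 0.985). That of Tlr7 was -1.44 (adjusted p = 0.611). In that comparison 9 of the 15 genes were lower and 6 higher, with 0 called. Inflammasome and processing genes were lower in 6 of 6 and called lower in 3, namely Gsdmd, whose product forms the pore through which Il1b leaves the cell (-2.63 ± 0.43, adjusted p = 6.45e-04), the inflammatory caspase Casp4 (-2.43 ± 0.54, adjusted p = 0.00362) and the sensor Nlrp3 (-2.18 ± 0.46, adjusted p = 0.00272). Least affected were the NF-kB subunits and their kinases, with 4 of 13 called lower and a median log2 fold change of -0.24. Rel (-2.50 ± 0.34, adjusted p = 1.55e-04), Nfkb2 (-1.47 ± 0.17, adjusted p = 5.04e-05) and Relb (-0.80 ± 0.15, adjusted p = 0.00167) were among them, and these subunit genes are themselves induced by NF-kB.

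**Figure D4:**
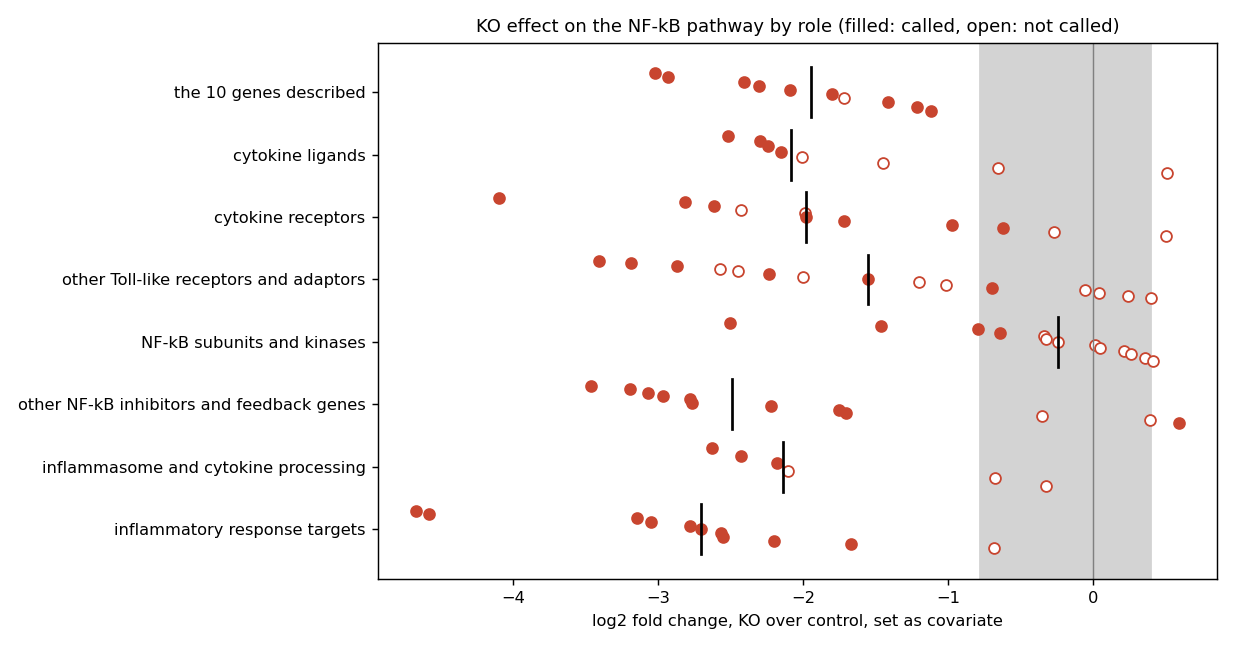
The log2 fold change of KO over control libraries with set as a covariate (x axis) for the 10 genes described and for 76 other pathway genes by role (rows), with filled points for genes called, black lines at the median of a row and grey shading over the interquartile range of all 17662 genes tested. The row of inflammatory response targets lies left of the shading but for 1 gene, whereas 9 of the 13 NF-kB subunits and kinases are open points, with a row median of -0.24.

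Levels per kilobase of exon set the members in an order. In the 7 control libraries the medians ran from 81.0 CPM per kilobase for Nfkbia through 28.6 for Il1b, 10.7 for Tnfaip3, 8.91 for Tnf, 7.37 for Il33, 5.60 for Tlr2, 4.76 for Il6, 2.57 for Lif and 1.35 for Tlr4 to 0.421 for Il1rn, and the ranges of neighbours in this order overlapped throughout. In the 7 KO libraries Nfkbia was again first at 24.8 CPM per kilobase and lay apart from the next gene, Tnfaip3 at 5.06. Il33 came next at 4.50, ahead of Il1b at 3.08, and Lif last at 0.171, with overlap between all neighbours below Nfkbia.

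Across the 14 libraries, the genes with the most similar patterns were sought for each member among 14513 genes, by the root mean square (RMS) difference of centred log2 CPM. Nfkbia lay nearest to Lmna, the gene of the nuclear lamins A and C (RMS difference 0.23, against a median of 1.32 over all genes), and to Sema4c (0.27). Il1b lay nearest to Creb3l1 (0.24) and Enpp1 (0.29), Tnfaip3 to Ssh2 and Mcl1 (0.26 and 0.27), Tlr2 to Rara, a retinoic acid receptor, and Cmtm7 (both 0.31), and Il33 to Tsc22d1 (0.32) and Tspan13 (0.33). The nearest genes were farther for Tlr4 (Fam217b, 0.40, and Psd4, 0.41), Tnf (Selenop, 0.44, and AU020206, 0.45), Lif (Ly6e, 0.48, and Slc25a24, 0.56), Il6 (Gzmb, 0.60, and Cd40, 0.64) and Il1rn (Slfn9, 0.77, and Papln, 0.82). Among the members themselves, Tlr2 and Tnfaip3 were closest (0.53), followed by Nfkbia and Tnfaip3 (0.57). These distances are a description over libraries that also differ in genotype and set.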

How the data were processed

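RNA of 14 mice was measured as stranded poly(A) RNAseq. The authors aligned reads to GRCm38 with STAR 2.5.2 and deposited raw counts per Ensembl gene. The submitters' processing notes also name bcl2fastq 2.19, Cufflinks 2.1.1 and HTSeq 0.11.2. The annotation release and the strand setting of the counting are not given in the sources used here. Names, exon lengths and overlaps came from GENCODE M21, where 42329 of the 42687 genes were found.

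KO libraries were assigned to sets by the style of their titles. Counts were tested with edgeR 4.0.16 (R 4.3.3; TMM, filterByExpr, quasi-likelihood test, Benjamini-Hochberg), within each set, over all sets with set as a covariate, and for differences of KO effects between sets, all genes fitted together. Alternatives were DESeq2 1.42.0, RLE normalization, library size alone, all genes with at least 1 count, a replicate block, a fit of 6 groups, and each library left out. Pathway genes were named by the largest changes among those called in each role, up to 3, and nearest patterns by the 2 closest genes of at least 1 mean CPM. Log2 CPM used a prior count of 2. The scripts were tested on simulated data. The members and gene lists were chosen with earlier results of these data known. Standard errors and intervals came from edgeR's quasi-likelihood test, whose dispersion was estimated from the spread between libraries of a group. Floors of 3 counts cover counting error only.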

Additional observations from a re-analysis of the deposited data

Results flagged for a closer look

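Among the 7 KO libraries, 3 single values of the 10 genes lay farther from the rest than Dixon's 95% critical value. The values compared were CPM, not log2 CPM, pooled over the KO libraries of the 3 sets. The rate at which chance flags about 1 in 20 groups holds for normally distributed values of 1 group. It was not checked for such pooled CPM, so these flags do not show more outliers than chance would give. The flagged values were Tnf at 5.85 CPM and Tlr2 at 19.99 CPM, both in KO replicate 2 of the Ctrl set, and Il1rn at 4.49 CPM in KO replicate 1 of the WT set. The first library also had 1954 CPM of macrophage markers other than Csf1r, against 36.2 to 221 CPM in the other KO libraries. Its neutrophil markers summed to 22.4 CPM, against 1.33 to 8.71 CPM. The part of these transcripts in the values of Tnf and Tlr2 was not tested.

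The KO effect on Tlr2 differed between the WT and Ctrl sets by -2.50 on the log2 scale (adjusted p = 0.0132 in edgeR's test of the difference). All 3 KO libraries of the WT set lay below all WT libraries, and 1 of the 2 KO libraries of the Ctrl set lay below both Ctrl libraries. Control genotype and set cannot be told apart in this difference.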

How the results depend on the processing

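Under the alternatives other than leaving out a library, 205 of 230 results on single members in KO against control libraries kept their direction and side of the threshold, 18 newly passed, 5 no longer passed and 2 reversed. The number of members called in KO vs. Ctrl, 0 in edgeR's test, was 5 with all genes of at least 1 count, 4 with DESeq2 and 2 in the fit of 6 groups. In KO vs. CreCtrl it was 3 in the fit of 6 groups in place of 8, without Tnf, Il6, Lif, Tlr2 and Tlr4. The number whose effect differed between sets, 1, was 4 with all genes of at least 1 count (Tlr2, Tnf, Il1b and Il33) and 2 with DESeq2. Tlr2 in KO vs. Ctrl reversed to -0.089 with library size alone and to -0.083 with the replicate block. Leaving out 1 library gave 5 to 8 members called in KO vs. WT, 0 to 2 in KO vs. Ctrl, 4 to 8 in KO vs. CreCtrl, 8 to 10 over all sets and 0 to 2 for differences between sets. The log2 fold change ranged from -0.72 to 0.52 for Tlr2 in KO vs. Ctrl, from -1.85 to 0.52 for Il1rn in KO vs. WT and from -0.028 to 0.51 for Il33 in KO vs. CreCtrl. Over all genes, the KO vs. Ctrl calls were 0 in edgeR, 1094 lower and 17 higher with DESeq2, 1632 and 26 with all genes, 635 and 12 in the fit of 6 groups and 500 and 12 without Ctrl replicate 1. In KO vs. CreCtrl 1946 lower calls became 506 in the fit of 6 groups and 1063 to 2696 on leaving out a library. With library size alone the median of all genes moved to -0.32, -0.11 and -0.24 in the WT, Ctrl and CreCtrl sets, calls in KO vs. WT were 3585 lower and 1417 higher in place of 2716 and 2171, in KO vs. CreCtrl 2694 and 176 in place of 1946 and 552, and over all sets 3808 and 678 in place of 2771 and 1815. The replicate block called 8, 0 and 9 members in the WT, Ctrl and CreCtrl sets, 9 over all sets, adding Il1rn in KO vs. CreCtrl, and moved the lower calls over all genes to 113 in KO vs. Ctrl and from 1946 to 2702 in KO vs. CreCtrl. The numbers were not taken to pair the samples. Same-numbered deviations correlated at -0.0028, 0.075 and 0.21 for WT mice with their KO counterparts, and WT replicate 1 correlated best with KO replicate 2. The same-numbered values were -0.038 for Ctrl mice and 0.19 for CreCtrl mice. With 2 libraries per group the value across numbers is the same with the sign reversed, so these 2 sets cannot decide on pairing. In the lowest counts (Il1rn, 1 to 334, and Lif, 5 to 363) depth limits what could be detected. The cause of these shifts was not tested.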

Other observations

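Like most genes tested, Il33 was not called in KO vs. CreCtrl, where 1946 of 15963 genes were called lower and 552 higher. Among the 10 fibroblast markers, Mfap4 and Fbln1, which encode proteins of elastic fibres and basement membranes, had log2 fold changes of 0.19 ± 0.20 (adjusted p = 0.499 in edgeR's test) and 0.38 ± 0.25 (adjusted p = 0.303) in the CreCtrl set, where the other 8 markers were called lower. In KO vs. WT both were called lower, at -2.87 ± 0.53 (adjusted p = 0.00319) and -2.46 ± 0.53 (adjusted p = 0.00677). The differences of these effects, WT minus CreCtrl, were -2.95 ± 0.74 (adjusted p = 0.0654) and -2.74 ± 0.89 (adjusted p = 0.151), neither past the threshold. The RMS difference of centred log2 CPM from Il33 over the 14 libraries was 0.90 for Mfap4 and 0.92 for Fbln1, against 0.85 for the RPE marker Best1 and a median of 1.03 over all genes. These genes were singled out after their values had been seen.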
